A study of Mus musculus with 16 samples.

Results

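The SOCS family of cytokine feedback inhibitors was examined with the Pim kinases, which cytokines induce in T cells alongside them. The 9 members were fixed by name (Cish, Socs1, Socs2, Socs3, Socs4, Socs5, Socs7, Pim1 and Pim2) from the 54456 gene rows of the table. The choice set no threshold on their values, but earlier results of these data were known when it was made. All 9 were in the table, and all 9 passed the filter on low counts that left 15675 genes for testing. The series concerns T cells of adipose tissue in obesity and in inflammatory arthritis. RNA was sequenced in bulk from T cells of OT-I mice in 16 libraries, 4 per group. The groups were T cells from visceral adipose tissue (VAT) of mice on a high-fat diet (HFD), from lymph nodes (LN) of mice on the HFD, from VAT of lean mice and from LN of lean mice. The HFD supplied 60% of its calories as fat and was given for 8 weeks, and the lean mice had standard chow for the same time. Mice of all 4 groups carry the OT-I transgenes, a single T cell receptor specific for ovalbumin peptide bound to MHC class I, so the cells are mostly CD8 T cells with 1 specificity and are a limited model of a mixed T cell population. The cells are described in one place as freshly isolated and in another as kept in culture overnight before T cells were sorted, and the sample columns carry the term Neg-OVA, which is not explained. The age of the mice was not given.

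Cytokines bind receptors that activate Janus kinases (JAKs), which phosphorylate STAT transcription factors, and STATs then switch on genes that include the SOCS family. SOCS proteins close the loop: an SH2 domain docks on phosphorylated receptors or kinases, and a SOCS box recruits elongins and a cullin to mark the bound protein for degradation, while Socs1 and Socs3 also block JAKs directly. Cish and Socs2 are classical targets of STAT5, the factor used by interleukin-2, interleukin-7 and interleukin-15, Socs3 is a target of STAT3, and Socs1 is induced by interferons and by common gamma chain cytokines. Pim1 and Pim2 are serine/threonine kinases with no regulatory domain, so their activity follows their abundance, and in T cells they support survival and growth.

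Promoter windows are shown for Cish, Socs3, Socs1 and Pim2 because these were the 4 members with the highest levels per length in VAT. Sequences are from RefSeq on GRCm38.p6 and run 5′ to 3′ along the gene's strand from 250 bases before to 50 bases after the annotated start. Of the 9 members, 6 had an entry. Capitals mark matches to TTCNNNGAA, the palindromic STAT core, in Cish and Socs3, and to the core of interferon response elements (GAAA and GAAA with any 2 bases between) in Socs1. Both strands were searched. The Cish window is chr9:107296409-107296708 on the plus strand, the Socs3 window chr11:117969317-117969616 on the minus strand, the Socs1 window chr16:10785487-10785786 on the minus strand and the Pim2 window chrX:7878056-7878355 on the plus strand.
Cish: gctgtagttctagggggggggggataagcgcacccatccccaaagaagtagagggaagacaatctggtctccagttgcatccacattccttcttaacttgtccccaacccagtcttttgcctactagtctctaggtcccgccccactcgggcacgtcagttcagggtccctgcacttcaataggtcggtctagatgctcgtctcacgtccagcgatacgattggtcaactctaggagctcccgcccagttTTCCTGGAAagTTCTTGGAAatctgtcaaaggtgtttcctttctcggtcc
Socs3: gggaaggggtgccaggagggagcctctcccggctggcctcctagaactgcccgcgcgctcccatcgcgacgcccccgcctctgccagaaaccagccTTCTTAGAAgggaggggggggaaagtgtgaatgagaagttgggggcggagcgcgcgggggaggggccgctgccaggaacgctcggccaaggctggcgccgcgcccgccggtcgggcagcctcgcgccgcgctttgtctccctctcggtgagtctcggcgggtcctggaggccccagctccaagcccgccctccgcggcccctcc
Socs1: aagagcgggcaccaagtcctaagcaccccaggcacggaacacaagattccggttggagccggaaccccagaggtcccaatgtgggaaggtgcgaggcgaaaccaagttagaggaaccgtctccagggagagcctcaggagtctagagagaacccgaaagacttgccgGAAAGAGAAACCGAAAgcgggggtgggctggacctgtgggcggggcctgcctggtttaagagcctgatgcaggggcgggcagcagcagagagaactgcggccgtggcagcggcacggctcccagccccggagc
Pim2: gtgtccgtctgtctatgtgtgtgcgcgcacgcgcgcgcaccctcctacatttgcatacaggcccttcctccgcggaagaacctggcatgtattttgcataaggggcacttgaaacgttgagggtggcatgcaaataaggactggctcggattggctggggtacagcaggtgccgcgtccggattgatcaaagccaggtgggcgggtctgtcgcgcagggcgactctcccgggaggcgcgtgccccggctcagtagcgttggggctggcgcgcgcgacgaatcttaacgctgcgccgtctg

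The Cish window held 2 STAT matches, TTCCTGGAA beginning at the annotated start (position 0) and TTCTTGGAA at position 11. Windows with at least 1 such match made up 8.3% of the 32851 promoter windows in the table, and those with at least 2 made up 0.457%. Socs3 held 1 match, TTCTTAGAA at position -154. Socs1 held 2 overlapping interferon-type matches, GAAAGAGAAA at position -83 and GAAACCGAAA at position -77, against at least 1 in 3.44% and at least 2 in 0.225% of windows. Pim2, Socs4 and the 2 windows of Pim1 held neither of these motifs, and TTC and GAA with any 4 bases between, the spacing preferred by STAT6 and present in 6.95% of windows, was in none of the members' windows. These are matches of letters and not measured binding sites.

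Between the tissues, Cish and Pim2 stood out among the 9 members. Cish, which encodes a SOCS protein that limits T cell receptor and interleukin-2 signalling, was abundant in every VAT library and at or near 0 counts in 7 of 8 LN libraries. Pim2 rose in VAT on both diets, by 2.97-fold on HFD and 4.36-fold in lean animals. Socs1 had similar levels in both tissues, and no member passed the test between the diets. Levels are counts scaled to a common library total (CPM) with TMM-normalised library sizes, means are given ± SD over the 4 libraries of a group, and p-values are those of edgeR (quasi-likelihood test), adjusted by Benjamini and Hochberg's method across the 15675 tested genes. A gene is said to have risen or fallen where its adjusted p was under 0.05.

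On HFD, 1 member (Pim2) rose in VAT against LN and none fell, while 4.56% of all genes tested passed in this comparison, 2.68% higher and 1.88% lower. In lean animals 2 members (Cish and Pim2) rose and none fell, while 3.04% of all genes passed, 2.12% higher and 0.919% lower. The fitted log2 fold change was above 0 for 8 of 9 members on HFD, with a median of 1.37 against -0.098 over all genes tested. It was above 0 for 9 of 9 in lean animals, with a median of 2.12 against -0.003 over all genes. Cish and Socs2 were near 0 in nearly all LN libraries and passed the filter through their VAT libraries, so these counts and medians describe the list and do not support a difference. Libraries of the 2 tissues did not overlap for Cish, Socs3, Pim1 and Pim2 on HFD, with 7.21% of all genes separated in that direction, and for Cish, Socs2, Socs7 and Pim2 in lean animals, with 7.24%. In bulk RNA, fewer cells that express a gene and less of its RNA per cell cannot be told apart.

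**Figure D1:**
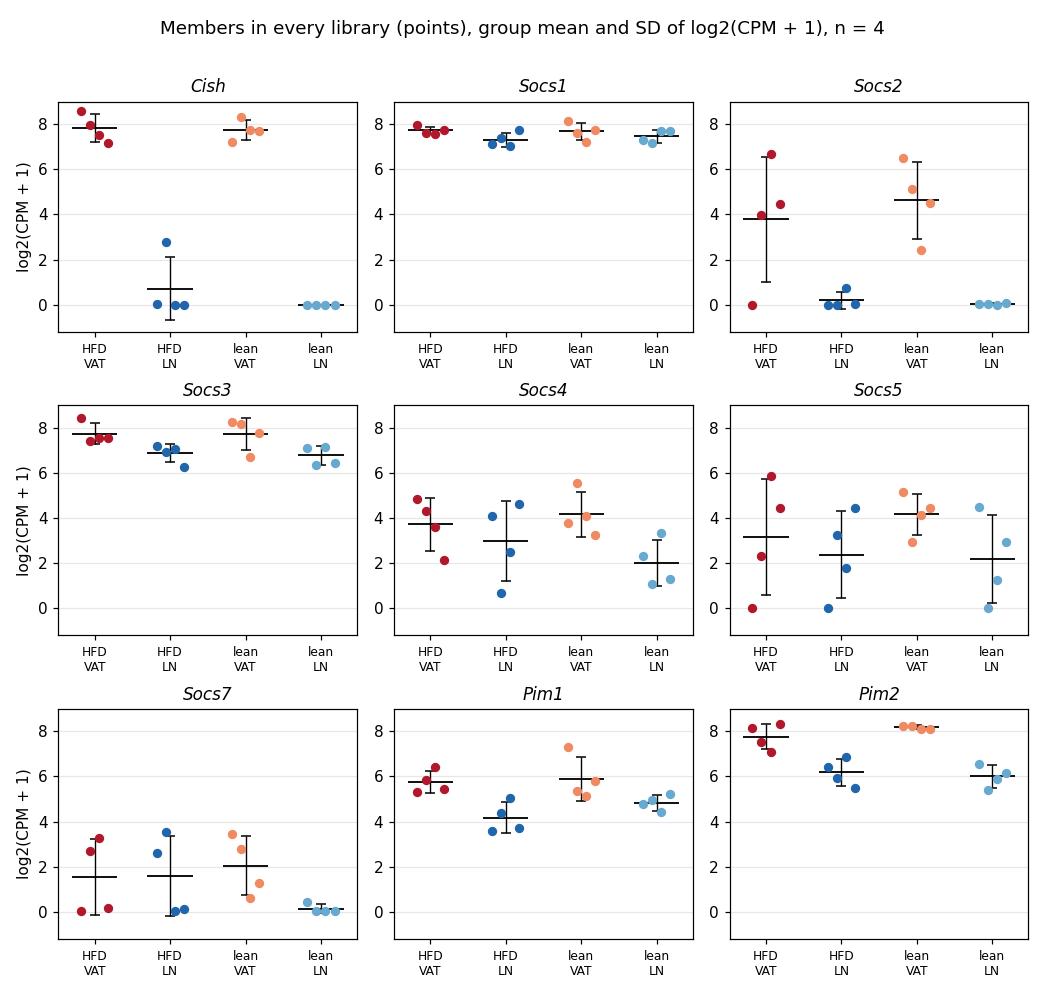
Each panel plots 1 member as log2(CPM + 1) on the vertical axis for the 4 groups, with a point per library and bars for the group mean ± SD (n = 4). Cish separates VAT from LN on both diets, Pim2 does so with less distance, and Socs1 overlaps in all groups.

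Cish had 388, 251, 185 and 141 CPM in the 4 HFD VAT libraries, against 0.0171, 5.95, 0 and 0 CPM in HFD LN. In lean animals it had 147, 321, 212 and 205 CPM in VAT, against 0 counts in all 4 LN libraries. Every VAT library was far above every LN library, and the lowest VAT value was 141 CPM while the highest LN value was 5.95 CPM. Against 3 counts in each lean LN library, the level a count of 0 allows, Cish was at least 4180.2-fold higher in lean VAT (edgeR adjusted p = 0.0116). On HFD the ratio was 160.2, with a 95% counting interval of 143 to 179.9, and the edgeR adjusted p was 0.067. Of the 304 counts in HFD LN, 303 (99.7%) were in replicate 2. Without that library the HFD difference passed (edgeR adjusted p = 2.98e-05), but this omission removes nearly all LN counts and so is no independent support. It was the only 1 of the 8 HFD fits without 1 library in which Cish passed (adjusted p up to 0.12). The difference between the diets' tissue effects did not pass for Cish (adjusted p = 0.641), so the tissue difference was not shown to depend on diet. In lean animals the call was lost without the 3 VAT libraries that miss the most genes (adjusted p = 0.0539).

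Socs2, the closest relative of Cish in the family and known for restraining growth hormone signalling, had 0, 14.7, 102 and 20.8 CPM in HFD VAT, against 0, 0, 0.683 and 0.0213 CPM in HFD LN. It had 90.7, 33.6, 4.32 and 21.7 CPM in lean VAT, against 0.0146, 0.018, 0 and 0.056 CPM in lean LN. Socs2 was thus at or under 0.683 CPM in all 8 LN libraries and detected in 7 of 8 VAT libraries, over a wide range. HFD VAT replicate 1, at 0 counts, overlapped the LN libraries. The ratio was 217 on HFD (95% counting interval 154 to 317, adjusted p = 0.109) and 1725 in lean animals (739 to 5313, adjusted p = 0.0608), where LN held 5 counts in all. Of the 32 counts in HFD LN, 31 (96.9%) were in replicate 3, so the HFD ratio rests on that library, and its interval covers counting error only. Without it the fitted HFD difference passed (edgeR adjusted p = 0.0459), but this omission removes nearly all LN counts and so is no independent support. It was the only 1 of the 8 HFD fits without 1 library in which Socs2 passed (adjusted p up to 0.22). With all libraries Socs2 passed on neither diet. Leaving out 1 library at a time moved the fitted HFD log2 fold change over a range of 6.06 to 11.86, the lowest without HFD VAT replicate 3. The tagwise dispersion of Socs2 (3.08) was the highest of the 9 members.

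Socs3, the inhibitor of interleukin-6 family signalling through the shared receptor chain gp130, had 346, 172, 185 and 184 CPM in HFD VAT, against 143, 122, 134 and 76.6 CPM in HFD LN. It had 300.2, 286, 104 and 215 CPM in lean VAT, against 137, 81.5, 142 and 86.5 CPM in lean LN. The HFD groups did not overlap, while lean VAT replicate 3 lay below 2 of the lean LN libraries. The log2 fold change was 0.90 ± 0.35 (SE, adjusted p = 0.18) on HFD and 1.02 ± 0.35 (adjusted p = 0.18) in lean animals, so neither passed.

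Socs1, the main brake on interferon gamma signalling in T cells, had 245, 197, 188 and 215 CPM in HFD VAT, against 139.7, 167, 129 and 210.0 CPM in HFD LN. It had 279, 197, 147 and 216 CPM in lean VAT, against 158, 140.4, 204 and 208 CPM in lean LN. All 4 groups overlapped, and every library held at least 129 CPM. Its log2 fold change between tissues was 0.39 ± 0.22 (adjusted p = 0.4) on HFD and 0.24 ± 0.22 (adjusted p = 0.842) in lean animals, and its tagwise dispersion (0.0798) was the lowest of the members.

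Socs4, Socs5 and Socs7 are the members with less studied roles in T cells: Socs4 and Socs5 have been linked to epidermal growth factor receptor signalling, and Socs7 to insulin signalling. Their libraries were scattered. Socs4 averaged 15.2 ± 10.3 CPM in HFD VAT and 11.2 ± 10.5 CPM in HFD LN, and 20.8 ± 17.3 CPM in lean VAT and 3.88 ± 3.64 CPM in lean LN. Socs5 averaged 20.6 ± 26.3 CPM in HFD VAT and 7.95 ± 9.27 CPM in HFD LN, and 19.6 ± 11.6 CPM in lean VAT and 7.41 ± 9.83 CPM in lean LN. For both genes the larger SD of a pair of groups was near or above the size of the difference, and no tissue difference passed (adjusted p 0.345 to 0.946). Socs7 had 0.0218, 5.55, 8.57 and 0.117 CPM in HFD VAT, against 5.06, 10.7, 0.044 and 0.106 CPM in HFD LN. It had 9.95, 5.96, 0.554 and 1.42 CPM in lean VAT, against 0.364, 0.0359, 0.0193 and 0.0373 CPM in lean LN. Both HFD groups split into libraries above 5 CPM and libraries near 0, while the lean groups did not overlap. Neither difference passed for Socs7 (adjusted p = 0.989 on HFD and 0.257 in lean animals).

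Pim1, a kinase induced by STAT5 and STAT3, had 38.8, 55.7, 83.9 and 42.4 CPM in HFD VAT, against 11.1, 19.6, 32.4 and 12.1 CPM in HFD LN. It had 157, 40.0, 33.8 and 54.7 CPM in lean VAT, against 26.1, 30.3, 20.2 and 36.7 CPM in lean LN. The HFD groups did not overlap, and in lean animals 1 VAT library lay within the LN range. The log2 fold change was 1.55 ± 0.55 (adjusted p = 0.142) on HFD and 1.33 ± 0.55 (adjusted p = 0.284) in lean animals.

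Pim2, the kinase that sustains growth of activated T cells when mTOR is inhibited, had 279, 181, 136 and 316 CPM in HFD VAT, against 85.4, 60.9, 117 and 43.7 CPM in HFD LN. It had 302, 305, 273 and 272 CPM in lean VAT, against 93.7, 40.8, 58.5 and 71 CPM in lean LN. No VAT library overlapped an LN library, and lean VAT was the tightest group, at 288 ± 17.9 CPM. The log2 fold change was 1.57 ± 0.34 (adjusted p = 0.0174) on HFD and 2.12 ± 0.35 (adjusted p = 0.00265) in lean animals, and the difference between these was not past the threshold (-0.55 ± 0.48, adjusted p = 1). The HFD call was lost without HFD LN replicate 2 (adjusted p = 0.0614), HFD LN replicate 4 (0.0556), HFD VAT replicate 1 (0.0512) or HFD VAT replicate 4 (0.0507), and with only the groups compared in the fit (0.0811).

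**Figure D2:**
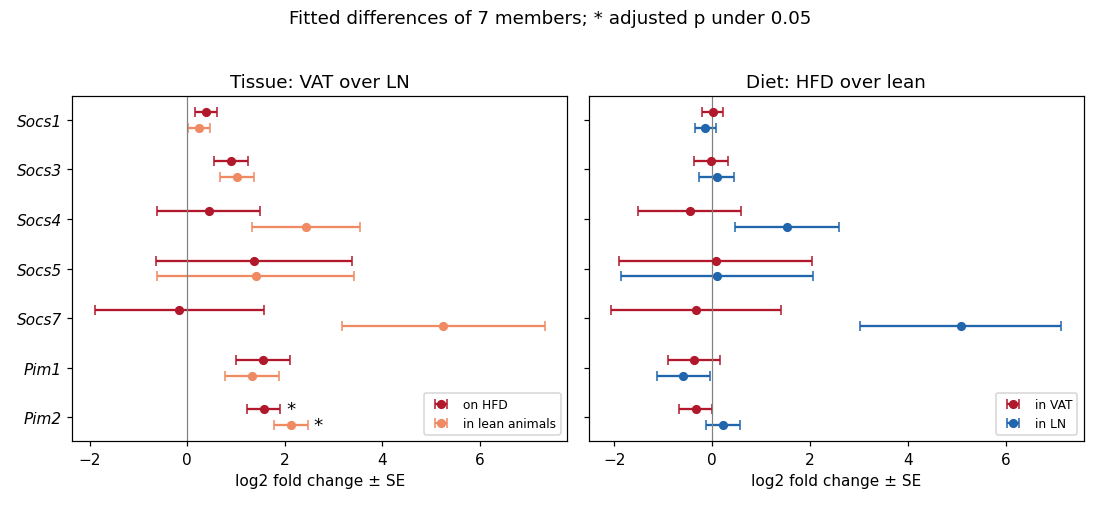
Points are fitted log2 fold changes with bars of ± SE for the 7 members other than Cish and Socs2, which had few or no counts in LN, with VAT over LN on the left and HFD over lean on the right, and an asterisk marks an adjusted p under 0.05. The 2 Pim2 tissue differences (1.57 on HFD and 2.12 in lean animals) carry an asterisk and no diet difference does.

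A comparison of VAT with LN averaged over both diets was added after the data had been seen. It uses 8 libraries per tissue, and 10.3% of all genes tested passed it, 5.77% higher and 4.52% lower. Of the 9 members, 5 rose (Cish, Socs2, Socs3, Pim1 and Pim2) and none fell. Cish and Socs2 passed the filter through their VAT libraries, so this count describes the list and does not support a difference of the family. Pim2 averaged 258 CPM in VAT and 71.4 CPM in LN, a 3.6-fold rise (adjusted p = 0.000193). Cish averaged 231 CPM in VAT and 0.746 CPM in LN (adjusted p = 0.00152), and Socs2 averaged 36 CPM in VAT and 0.0991 CPM in LN (adjusted p = 0.00633). Pim2, Cish and Socs2 passed in all 22 alternative fits, which reuse the same libraries. Cish and Socs2 were near 0 in nearly all LN libraries and passed the filter through VAT, so for them these fits are no added support. Socs3 was 1.95-fold higher in VAT, at 224 CPM against 115 CPM in LN (adjusted p = 0.025), and Pim1 2.72-fold higher, at 63.3 CPM against 23.6 CPM in LN (adjusted p = 0.0303). The Socs3 and Pim1 calls were less stable than that of Pim2: Socs3 passed in 14 of the 22 fits and Pim1 in 11. Leaving out a single library ended the Socs3 call for HFD LN replicate 4, HFD VAT replicate 1, lean LN replicates 2 and 4 and lean VAT replicate 2 (adjusted p 0.0526 to 0.0582). It ended the Pim1 call for HFD LN replicates 1, 2 and 4, HFD VAT replicate 3, lean LN replicates 1, 2 and 3 and lean VAT replicate 1 (adjusted p 0.0518 to 0.0656). Socs1, Socs4, Socs5 and Socs7 did not pass (adjusted p 0.259 to 0.652).

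Between the diets no member passed in either tissue. In VAT, HFD against lean, 0.0574% of all genes tested passed, and 0 of 9 members did (0 also at an unadjusted p under 0.05 and by DESeq2 and voom), with a median log2 fold change over the members of -0.13 against -0.097 over all genes. Socs1 differed by 0.01 ± 0.22 and Socs3 by -0.03 ± 0.35 on the log2 scale, while Cish differed by 0.12 ± 1.5 and Socs5 by 0.07 ± 1.97. For Cish the SE comes from 1 dispersion for all groups, LN included, while its VAT libraries lay between 141 and 388 CPM on HFD and between 147 and 321 CPM in lean animals. For Socs5, with HFD VAT libraries between 0 and 57.8 CPM, a change of several fold was not detectable with this spread. Pim1 differed by -0.37 ± 0.54 and Pim2 by -0.34 ± 0.34. The VAT libraries of the 2 diets overlapped for all 9 members, and 3.22% of all genes were without overlap. In LN, 0% of genes passed, 529 genes had an unadjusted p under 0.05, and 2 members were among these, Cish (unadjusted p = 0.00543) and Socs7 (unadjusted p = 0.027), both with an adjusted p of 1. DESeq2 called 324 genes in LN. For Cish the unadjusted value rested on HFD LN replicate 2. DESeq2, which did call the Cish diet difference in LN, gave a log2 fold change of 23.66 (adjusted p = 3.28e-26) for a gene with 303 of 304 counts in 1 library. The difference between the diet effects in VAT and LN passed for 0.0191% of all genes and for 0 of 9 members with edgeR. Of the 965 genes with an unadjusted edgeR p under 0.05, 1 was a member, Cish (0.0139), which DESeq2 called.

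Members were compared with each other only per kilobase of merged exon (GENCODE M21). In HFD VAT the order of mean level was Pim2 (112 CPM per kb), Socs3 (86.9), Socs1 (72.7), Cish (66.1), Pim1 (17.7), Socs2 (12.6), Socs5 (4.43), Socs4 (2.21) and Socs7 (0.508). Lean VAT had the same order, from 141 CPM per kb for Pim2 to 0.637 for Socs7. In LN, Socs1 came first, at 55.5 CPM per kb in HFD LN and 61.1 in lean LN, followed by Socs3 at 46.5 and 43.8 and Pim2 at 37.6 and 32.3. Cish, between Socs1 and Pim1 in VAT, was at 0.409 CPM per kb in HFD LN and 0 in lean LN. In HFD VAT neighbours in the order were closer than the larger of their SDs between libraries, except Cish and Pim1, and Socs4 and Socs7. In lean VAT the exceptions were Pim2 and Socs3, and Cish and Pim1. In both LN groups Pim2 stood above Pim1, and Pim1 above Socs5, by more than that SD, and in lean LN so did Socs1 above Socs3 and Socs4 above Socs7.

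The genes with the profile nearest to a member over the 16 libraries were found by the root mean square difference of log2(CPM + 1) after centring each gene, among 9013 genes tested with a mean of at least 5 CPM. For Cish these were Ccrl2, a chemokine-binding receptor that does not signal (0.947), P2rx7, the ATP-gated channel (0.962), and Oasl1, an interferon-induced gene (0.976). For Socs1 they included Arhgdia (0.204) and Cfl1 (0.208), genes used by most cells. Eif5a (0.346), Mvb12a (0.358) and Psme2b (0.378) were nearest to Socs3, and Rnf125 (0.413), Ndufa1 (0.468) and Pfdn4 (0.468) to Pim1. A gene of small variation lies near many others by this measure, so the values are not comparable between members.

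The pathway around the members was described with 6 lists of tested genes. Among 18 cytokine receptors, 4 rose and 2 fell in VAT on HFD, and 4 rose and 1 fell in lean animals, with median log2 fold changes of 0.67 and 0.52. Of all genes tested, 2.68% rose and 1.88% fell on HFD, and 2.12% rose and 0.919% fell in lean animals. The medians over all genes were -0.098 and -0.003. The lists were chosen with earlier results known, and Il2ra and Il12rb2 had few or no counts in an LN group. Counts and medians of the lists therefore only describe them. Il2rb, the chain shared by the interleukin-2 and interleukin-15 receptors, averaged 1089 ± 268 CPM in HFD VAT and 307 ± 55.7 CPM in HFD LN (log2 fold change 1.82, adjusted p = 0.000139). In lean animals it averaged 1216 ± 139 CPM in VAT and 240.0 ± 56.2 CPM in LN (2.34, adjusted p = 3.18e-05). Il2rg, the common gamma chain, also rose on both diets (1.17, adjusted p = 3.45e-05, and 0.73, adjusted p = 0.00178). Il2ra, the high-affinity chain and itself a STAT5 target, had 8.84 to 44.6 CPM in lean VAT, against 0 counts in all 4 lean LN libraries, at least 434-fold higher (adjusted p = 0.0127). On HFD it had 3.64 to 46.9 CPM in VAT, against 0 to 25.4 CPM in LN (adjusted p = 0.678). Il2rb and Il2rg thus rose in VAT on both diets and Il2ra in lean animals, while the HFD libraries of Il2ra overlapped. The difference between the diets' tissue effects did not pass for Il2ra (adjusted p = 0.327).

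Il7r, the interleukin-7 receptor found on resting T cells, fell in VAT on both diets. It averaged 459 ± 125 CPM in HFD VAT and 1511 ± 189 CPM in HFD LN (log2 fold change -1.72, adjusted p = 0.000448), and 379 ± 88.4 CPM in lean VAT and 1386 ± 299 CPM in lean LN (-1.87, adjusted p = 0.000342). Il6ra, the interleukin-6 receptor, fell on HFD to 0.686 ± 1.1 CPM in VAT, against 53.5 ± 16.9 CPM in LN (adjusted p = 0.0375), and had 13.6 ± 11.9 CPM in lean VAT and 51.6 ± 13.1 CPM in lean LN (adjusted p = 0.661). Ifngr1, the ligand-binding chain of the interferon gamma receptor, rose on both diets (1.99, adjusted p = 0.00012, and 2.12, adjusted p = 9.12e-05). Ifngr2, the other chain of that receptor, averaged 4.14 ± 7.7 CPM in HFD VAT and 87.6 ± 26.7 CPM in HFD LN (adjusted p = 0.229), and 14.6 ± 19.3 CPM in lean VAT and 118 ± 23.7 CPM in lean LN (adjusted p = 0.567). Every VAT library of Ifngr2 was below every LN library, and neither difference passed. Il12rb2, the signalling chain of the interleukin-12 receptor, averaged 239 ± 28.5 CPM in HFD VAT, against 1 count in all of HFD LN (adjusted p = 0.00145), and 226 ± 75.9 CPM in lean VAT and 3.41 ± 4.3 CPM in lean LN (adjusted p = 0.0552).

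**Figure D3:**
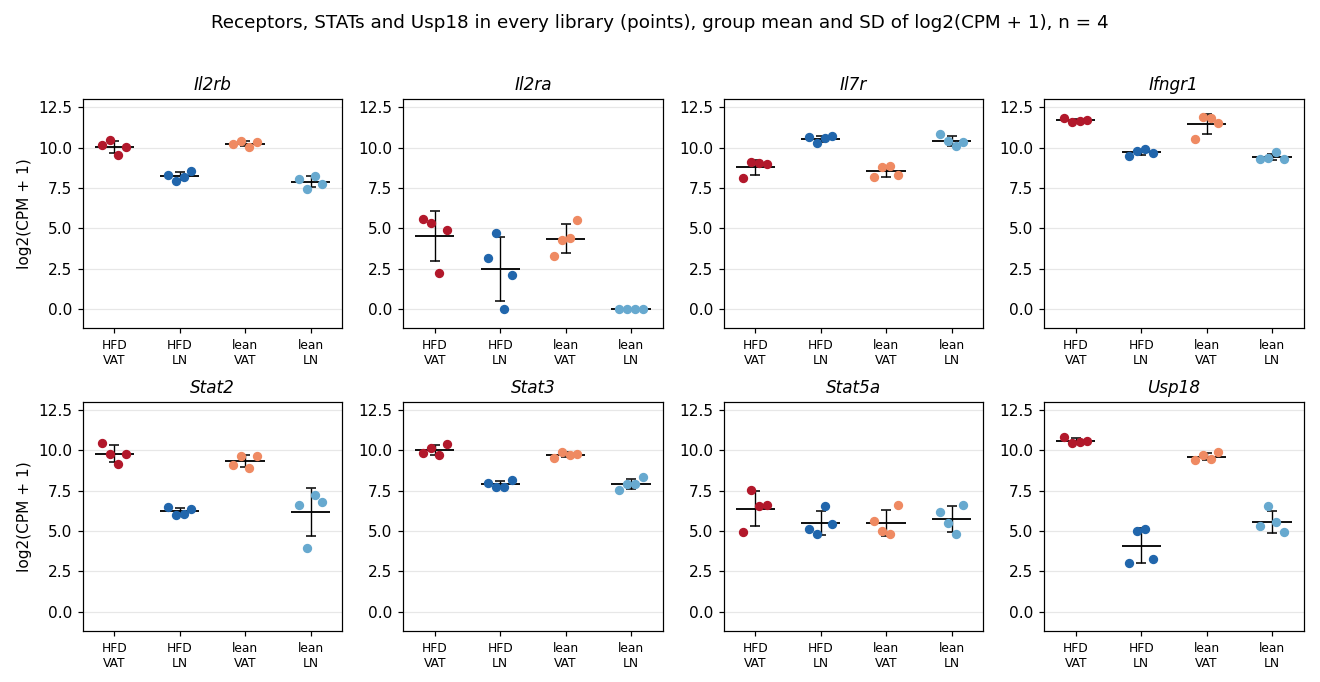
Panels plot log2(CPM + 1) per library with group mean ± SD (n = 4) for 4 receptor chains, 3 STATs and Usp18. Il2rb, Ifngr1, Stat2, Stat3 and Usp18 sit higher in all VAT libraries, Il7r sits lower, and Stat5a overlaps.

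Of 11 JAKs and STATs, 3 rose and 1 fell in VAT on each diet, with median log2 fold changes of 0.78 on HFD and 0.11 in lean animals. Stat2, which acts in type I interferon signalling, averaged 929 ± 346 CPM in HFD VAT and 73.4 ± 11.9 CPM in HFD LN (log2 fold change 3.66, adjusted p = 0.000826), and rose by 2.82 in lean animals (adjusted p = 0.00605). Stat3, the factor that acts downstream of interleukin-6, averaged 1045 ± 218 CPM in HFD VAT and 238 ± 33 CPM in HFD LN (2.13, adjusted p = 1.43e-05), and rose by 1.79 in lean animals (adjusted p = 6.94e-05). Jak1, the kinase on which many of these receptors rely, fell (-0.97, adjusted p = 0.00725, and -1.29, adjusted p = 0.0011). Stat5a, which with Stat5b makes up the STAT5 known to drive Cish, Socs2 and Pim1, did not pass. It averaged 98.8 ± 62 CPM in HFD VAT and 49.5 ± 29.8 CPM in HFD LN (adjusted p = 0.445), and 50.2 ± 31.3 CPM in lean VAT and 59.3 ± 31.1 CPM in lean LN (adjusted p = 0.987). Stat5b did not pass either (adjusted p = 0.916 on HFD and 0.998 in lean animals). These are RNA levels and do not measure STAT phosphorylation.

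Of 10 other STAT5 target genes, which include Il2ra, 1 rose on HFD and 3 rose in lean animals, none fell, and the medians were 0.78 and 0.82. Ccnd2, a cyclin of early cell cycle entry, rose on both diets (2.91, adjusted p = 3.47e-05, and 2.74, adjusted p = 7.63e-05). Bcl2, the survival factor, averaged 263 ± 95.4 CPM in HFD VAT and 122 ± 41.9 CPM in HFD LN (adjusted p = 0.116), and rose in lean animals, to 308 ± 87.8 CPM in VAT, against 104 ± 44.7 CPM in LN (adjusted p = 0.0333). Among 12 other brakes on cytokine signalling 1 rose on each diet, Usp18, the interferon-induced enzyme that blocks the type I interferon receptor, and the medians were 0.50 and 0.06. Usp18 had 1819, 1396, 1432 and 1523 CPM in HFD VAT, against 7.03, 30.5, 33.3 and 8.74 CPM in HFD LN (log2 fold change 6.28, adjusted p = 2.05e-05). In lean animals it had 659, 839.9, 703 and 940.2 CPM in VAT, against 37.9, 91.7, 45 and 29.4 CPM in LN (3.94, adjusted p = 0.00045). None of the 6 genes for the ubiquitin ligase that the SOCS box recruits passed on either diet with edgeR (1 on HFD and 2 in lean animals at an unadjusted p under 0.05, medians 0.28 and 0.36). None of the 9 genes for Pim3 and Pim kinase substrates did (2 and 0 at an unadjusted p under 0.05, medians -0.37 and -0.51). Among all 15675 genes tested, 2945 on HFD and 2163 in lean animals had an unadjusted p under 0.05. Over both diets 2 of the ligase genes rose, the elongins Elob (log2 fold change 0.72, adjusted p = 0.0449) and Eloc (0.92, adjusted p = 0.0416), which bind the SOCS box. Of all genes tested, 5.77% rose in that comparison. Of the 65 distinct genes in these 6 lists, 0 passed with edgeR between diets in VAT, between diets in LN or for the difference between diet effects, and 4, 3 and 7 had an unadjusted p under 0.05 in these comparisons. Among all 15675 genes tested, 1266, 529 and 965 had an unadjusted p under 0.05 in the same comparisons, so these list counts are not read as a result.

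**Figure D4:**
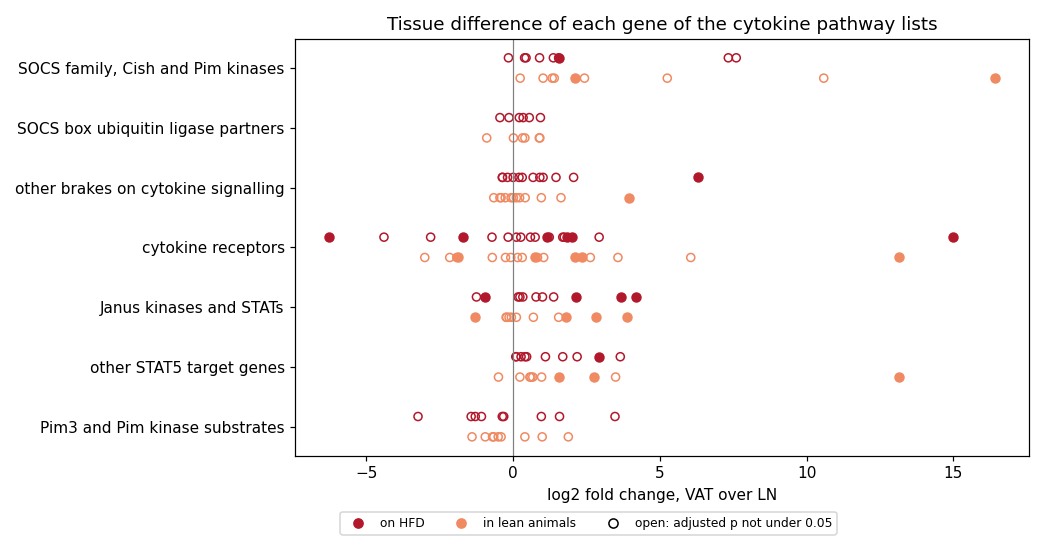
Each point is 1 gene of the members or of a pathway list, placed by its fitted log2 fold change of VAT over LN on HFD or in lean animals, and filled where the adjusted p was under 0.05. Values beyond 7 come from Cish, Socs2, Il2ra and Il12rb2 where they had few or no counts in the LN group compared, so that these fitted values are not measured sizes.

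Library totals were 40212388 to 65957407 counts, and 3 counts in a library correspond to 0.0437 to 0.0803 CPM. Summed T cell markers were 7263 to 8031 CPM in HFD VAT and 5756 to 6887 CPM in HFD LN, and 6939.5 to 8772 CPM in lean VAT and 5505 to 7033 CPM in lean LN. Cd3e did not pass on either diet, Cd8a rose in VAT on both (adjusted p = 1.68e-05 and 9.1e-05) and Cd8b1 fell on both (adjusted p = 0.00241 and 0.0179). Summed B cell markers were 169 to 359.8 CPM in HFD VAT and 1596 to 2387 CPM in HFD LN, and 84.2 to 219.9 CPM in lean VAT and 1492 to 2671 CPM in lean LN. Of the 6 B cell genes 5 fell in VAT on each diet, with Cd79a at 0.0178 CPM in HFD VAT and 119.5 CPM in HFD LN. Fcmr was at 0 in all VAT libraries. The 8 macrophage markers summed to 33.4 to 131 CPM in HFD VAT and 62 to 174 CPM in HFD LN, and to 39.7 to 78.6 CPM in lean VAT and 39.3 to 188 CPM in lean LN, with C1qa at 0 throughout and Lyz2 over 3 counts in only 2 of the 8 VAT libraries. These sums hide 2 genes that differ in opposite directions. Apoe, which carries nearly all of the LN sum, fell on HFD, with 0.00569 CPM in VAT and 125 CPM in LN. Cd68 had 26.5 to 131 CPM in HFD VAT and 0 to 2.36 CPM in HFD LN (adjusted p = 0.144), and 18.9 to 78.6 CPM in lean VAT and 0 to 6.07 CPM in lean LN (adjusted p = 0.371), without overlap on either diet, and rose over both diets (adjusted p = 0.0396). CD4 and regulatory T cell markers summed to at most 0.114 CPM in HFD VAT and 21.6 to 39.8 CPM in HFD LN, and to at most 9.39 CPM in lean VAT and 24.3 to 32.3 CPM in lean LN. Cd40lg carried these sums (27.7 CPM in HFD LN), while Cd4 had 2 counts in all of HFD LN, reached 4.76 CPM in 1 lean LN library and had at most 1 count in the others, and Foxp3 was at 0 in both LN groups. Endothelial markers summed to 43.5 to 98.4 CPM in HFD VAT and 124 to 204 CPM in HFD LN, and to 29 to 67.5 CPM in lean VAT and 70.3 to 168 CPM in lean LN. Pecam1 carried these sums (65.7 CPM in HFD VAT and 159 CPM in HFD LN), with Cdh5 at 0 in both HFD groups and Kdr at 0.0444 CPM in HFD LN. Summed NK cell markers overlapped between the tissues, at no more than 113 CPM in any library, while Klrb1c alone had 24 to 94.7 CPM in HFD VAT and 0 to 3.36 CPM in HFD LN (adjusted p = 0.283) and rose over both diets (adjusted p = 0.0247). In lean animals Klrb1c had 0, 27.3, 3.66 and 54.2 CPM in VAT, against 0 counts in LN. Eomes went the other way and did not pass. It averaged 25.2 ± 21.6 CPM in HFD VAT and 44.9 ± 44.2 CPM in HFD LN, and 21.4 ± 16.8 CPM in lean VAT and 47.5 ± 39.3 CPM in lean LN. Ncr1 was at 0 in both HFD groups. Fibroblast markers reached at most 40.5 CPM, adipocyte markers 0.308 CPM and neutrophil markers 0.0268 CPM. The part of these cell types in the members' differences was not tested.

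The VAT libraries differed in how many genes they missed. Among genes whose median over the remaining libraries of a group reached 10 CPM, 11.4% had 3 counts or fewer in HFD VAT replicate 1, 11.5% in HFD VAT replicate 3 and 13.3% in lean VAT replicate 1, against 0.818% to 5.45% in the other 13 libraries. HFD VAT replicate 1 is the library in which Socs2 and Socs5 had 0 counts and Socs7 had 1, and it also had the highest Cish, Socs1, Socs3 and Socs4 levels of its group. Lean VAT replicate 1 had the highest Socs1, Socs2, Socs3, Socs5, Socs7 and Pim1 levels of its group. The part of the missing genes in the members' values was not tested beyond leaving these libraries out. Without these 3 libraries, Pim2 passed on HFD (adjusted p = 0.0449) and in lean animals (adjusted p = 0.0113), and over both diets Cish, Socs2 and Pim2 passed while Socs3 (adjusted p = 0.138) and Pim1 (adjusted p = 0.108) did not.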

How the data were processed

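The values deposited by the authors are whole-number counts of each gene in 16 libraries, not normalised, and no sample column was left out. The tools named in the submitters' processing notes are kallisto 0.42.4 and DESeq2, and the build named there is GRCh38, which is human, while the gene names are of mouse, and the step from kallisto's estimates to whole counts is not given in the sources used here. The labels name more than 1 library kit and sequencer, and their growth protocol describes another cell type. They call the libraries biological replicates but do not say that each came from a separate mouse, so p-values measure the spread between these libraries, which may be partly technical. The cDNA was amplified by PCR, so 2 reads can come from 1 molecule, and intervals and floors (3 counts) cover counting error only. Antisense or overlapping transcripts may share reads with a gene, since strand is not stated.

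Genes passing edgeR's filterByExpr (15675) were tested with edgeR 4.0.16 in R 4.3.3 (TMM, robust quasi-likelihood F-test, common dispersion 1.52, all 16 libraries and 4 groups in the fit), with Benjamini-Hochberg adjustment over all genes tested and a threshold of 0.05. The SE is the log2 fold change divided by the square root of F. Alternatives were RLE scaling, no filter, DESeq2 1.42.0, voom with quality weights (limma 3.58.1), only the groups compared, replicate numbers as a block, the fit without 3 VAT libraries and the fit without each library in turn. The fit was also run on simulated counts, whose dispersion was set far below the 1.52 of these data. That run therefore does not show how the fit performs at the spread of these data.

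The members and lists were chosen with earlier results of these data known. Named genes are the 9 members, up to 2 genes per list, comparison and direction with the smallest p among those that passed, a panel (Cd3e, Cd8a, Cd79a, Lyz2, Stat5a, Il2rb, Il7r and Usp18) and the 3 genes most like Cish, Socs1, Socs3 and Pim1. Stat2, Stat5b, Ifngr2, Elob, Eloc and marker genes outside the rule are named in addition, chosen after their values were seen, and some genes the rule names are not reported here. Promoter motifs were searched in RefSeq windows on GRCm38.p6. Python 3.11.15 with pandas 2.3.3, NumPy 2.4.6 and Matplotlib 3.10.9 made the summaries and figures.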

Additional observations from a re-analysis of the deposited data

Results flagged for a closer look

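In 5 of the 35 member and group combinations checked, the highest library stood far from the other 3 of its group. The rule used would flag about 1 in 20 if values were normally distributed. Many of these CPM values are skewed, so that rate does not hold here and the 5 are not read as an excess over chance. Cish had 5.95 CPM in HFD LN replicate 2, against at most 0.0171 CPM in the other HFD LN libraries. Socs2 had 0.683 CPM in HFD LN replicate 3, against at most 0.0213 CPM in the others. Socs3 had 346 CPM in HFD VAT replicate 1, with the next at 185 CPM, and Pim1 had 157 CPM in lean VAT replicate 1, with the next at 54.7 CPM. Both of these VAT libraries are among the 3 that missed the most genes. Socs7 had 0.364 CPM in lean LN replicate 1, against at most 0.0373 CPM in the other lean LN libraries.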

How the results depend on the processing

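In all 23 settings Pim2 kept its direction between tissues. It passed in 15 of 15 alternatives in lean animals and in 10 of 15 on HFD (adjusted p up to 0.0811). Genes called in VAT against LN on HFD (714) were 441 with no filter and 2698 with DESeq2, and in lean animals (476) 1694 with DESeq2 and 1350 with voom. Over both diets (1614) they were 1020 with no filter, 3589 with DESeq2 and 2481 with voom. Between diets in VAT (9) they were 2 with no filter, 886 with DESeq2, 32 with voom, 0 with only the groups compared, 1 with the replicate block and 62 without 3 VAT libraries. In LN (0) they were 324 with DESeq2 and 3 with voom. For the difference between diet effects (3) they were 1 with no filter, 700 with DESeq2, 6 with voom, 0 with the replicate block and 46 without 3 VAT libraries. Members called on HFD (1) were 4 with DESeq2, 3 with voom and 0 with only the groups compared. In lean animals (2) they were 4 with DESeq2 and 1 without 3 VAT libraries, and over both diets (5) 3 with no filter and 3 without 3 VAT libraries. On HFD DESeq2 called Cish, Socs2, Pim1 and Pim2, and voom Cish, Pim1 and Pim2, and in lean animals DESeq2 called Cish, Socs2, Socs7 and Pim2. DESeq2 was run on all 33950 genes with a count. With it the genes called at large also grew, from 714 to 2698 on HFD and from 476 to 1694 in lean animals. Its larger member counts are thus no added support for the members. The total that voom called on HFD is not given here. DESeq2 called 1 member between diets in LN and 1 for the difference between diet effects, Cish in both. The cause was not tested.

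Leaving out 1 library gave 483 to 632 genes and 0 to 2 members called on HFD, 325 to 492 and 2 to 2 in lean animals, 1248 to 1597 and 3 to 5 over both diets, 3 to 40 and 0 to 0 between diets in VAT, 0 to 1 and 0 to 0 in LN, and 0 to 24 and 0 to 0 for the difference between diet effects. Same-numbered libraries did not deviate together (correlations -0.0982 to 0.0446 over 24 pairs). With a spread this wide between libraries, that cannot show whether any of them came from the same mouse, so pairing is not known. With the replicate block 505, 337 and 1155 genes and 1, 2 and 4 members passed between tissues on HFD, in lean animals and over both diets.

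No member call changed sign. Uncalled log2 values that did were, between diets in VAT, Socs3 (0.08 with RLE, 0.01 with no filter, 0.08 with DESeq2 and 0.01 with voom), Cish (-0.25 with voom), Socs5 (-1.49 with voom), Pim1 (0.22 with voom), Socs7 (0.20 with the replicate block), and without 3 VAT libraries Cish (-0.31), Socs5 (-0.23), Socs7 (0.11) and Pim1 (0.21). In LN it was Socs5 (-1.09 with voom). For the difference between diet effects they were Socs3 (0.00 with RLE, 0.01 with DESeq2 and 0.00 with voom) and Socs5 (0.07 with RLE, 0.05 with no filter and 0.08 with DESeq2). Between tissues on HFD they were Socs7 (1.15 with the replicate block) and Socs4 (-0.01 without 3 VAT libraries).

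Leaving out 1 library also turned uncalled values. The ranges on HFD were -0.00 to 1.10 for Socs4 and -1.07 to 1.03 for Socs7. Between diets in VAT they were -0.20 to 0.38 for Cish, -0.12 to 0.18 for Socs1, -1.66 to 0.79 for Socs2, -0.33 to 0.14 for Socs3, -0.90 to 0.32 for Socs4, -1.26 to 0.50 for Socs5, -1.23 to 0.43 for Socs7 and -0.64 to 0.37 for Pim1. In LN they were -1.42 to 3.72 for Socs2, -0.04 to 0.25 for Socs3, -1.01 to 1.54 for Socs5 and -0.06 to 0.43 for Pim2. For the difference between diet effects they were -4.51 to 1.30 for Socs2, -0.41 to 0.05 for Socs3, -1.46 to 1.09 for Socs5 and -0.05 to 0.96 for Pim1. The fit of only the groups compared was not run for the difference between diet effects or over both diets.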
